A study of Drosophila melanogaster with 4 samples.

Results

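The Cpr genes encode proteins of the largest family of insect cuticle proteins. All 70 genes whose symbol begins with Cpr followed by a digit were examined here among the 17510 genes of the count table. They were found by matching FlyBase identifiers to symbols, with no use of their counts. Cpr itself, the cytochrome P450 reductase gene, has no digit in its symbol and is not among them. Below, the family means these 70, and genes of the same protein family under other symbols were not included. Of the 70, 62 had at least 1 count in some library, 33 had at least 10 counts over the 4 libraries, 8 passed the count filter and were tested, and 5 averaged at least 1 CPM (counts scaled to a common library size by the TMM method). RNA came from dissected adult Drosophila melanogaster intestines freed of Malpighian tubules and crop. The RNAi flies carried a transgenic line of the National Institute of Genetics collection that targets CG5789 (symbol Cftr), the gene taken as the fly counterpart of human CFTR, and were set against flies labelled wild type, with 2 libraries each. The sources used here do not name the RNAi driver, the age and sex of the flies or the number of intestines per library. No library was labelled as a control for the transgene, so its effect and that of the line cannot be told apart.

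Proteins of this family carry a chitin-binding domain known as the Rebers and Riddiford consensus, and are laid down with chitin in the cuticle of the epidermis. In the gut the foregut and hindgut are of ectodermal origin and are lined by cuticle, as are the tracheal tubes that supply the gut wall. The midgut is instead lined by the peritrophic matrix, whose chitin is bound mainly by other protein families. Most cuticle protein genes are known for transcription at moults, under control of ecdysone pulses and the nuclear receptors that follow them.

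Total counts per library were 30252763 and 23674485 for RNAi 1 and 2, and 30537063 and 11294882 for wild type 1 and 2. The first principal component (52.6% of variance) did not follow the genotype: it placed RNAi 1 and wild type 1 (set 1) apart from RNAi 2 and wild type 2 (set 2). The labels name no batch, and the sets were read from the counts. The targeted gene, Cftr, had 13.8 and 17.5 CPM in RNAi 1 and 2, against 13.8 and 43.4 CPM in wild type 1 and 2, so that it was lower in RNAi within set 2 and level within set 1. Every direction below is for libraries as labelled. Adult gut markers were abundant, the 20 genes of that list adding up to 58150 and 48754 CPM in RNAi 1 and 2 and to 68136 and 54762 CPM in wild type 1 and 2. The labels do not state whether libraries of 1 genotype derive from different flies, so p-values rest only on how these libraries vary, and that variation could be technical.

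Most of the family was too low to test in these intestines. The share of members that passed the count filter was 11.4%, against 65.7% of the 13867 protein-coding genes in the table, and 7.14% of members averaged at least 1 CPM, against 58.6% of protein-coding genes. The 8 members that passed the filter were Cpr67B, Cpr51A, Cpr78E, Cpr73D, Cpr49Ae, Cpr62Bb, Cpr66D and Cpr11B. Another 25 had between 10 and 38 counts over the 4 libraries, and 29 had 1 to 9. No count was found for Cpr5C, Cpr57A, Cpr65Ax1, Cpr65Ax2, Cpr65Ec, Cpr67Fa2, Cpr67Fb and Cpr76Ba. A count of 0 in all 4 libraries allows up to 3 counts, or 0.0313 CPM over the libraries, by counting error alone. Members with near-identical copies, such as the Cpr65Ax and Cpr67Fa pairs, may have lost reads that map to both copies, since the handling of such reads was not given.

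Per kb of exon, the members that can be compared with each other fell into 3 steps. Cpr67B averaged 35.8 CPM per kb over the 4 libraries and Cpr51A 23.4 CPM per kb, at the 80.9th and 75th percentile of the tested genes on that scale. Cpr78E followed with 7.88 CPM per kb, near the middle of the tested genes (54.6th percentile), and Cpr49Ae with 2.24 CPM per kb. The other 4 tested members had between 0.461 and 0.913 CPM per kb. The order of the first pair depended on the genotype. In RNAi 1 and 2 Cpr67B had 19.0 and 21.8 CPM per kb and Cpr51A 29.6 and 22.0 CPM per kb, whereas in wild type 1 and 2 Cpr67B had 65.2 and 37.1 CPM per kb and Cpr51A 29.3 and 12.7 CPM per kb. In RNAi 2 the pair thus differed by less than their spread between the RNAi libraries.

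**Figure D1:**
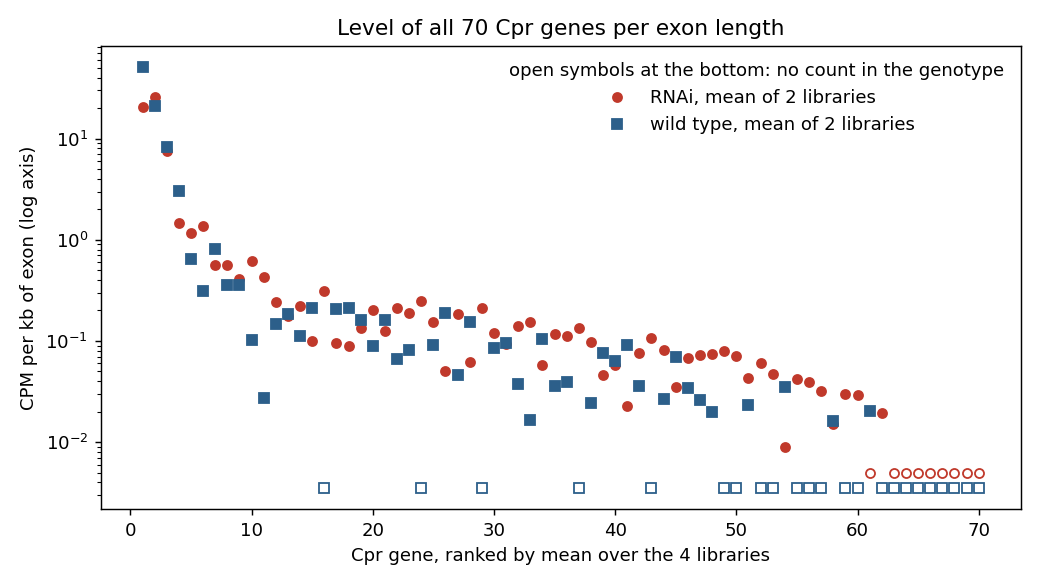
Level of each of the 70 Cpr genes in CPM per kb of exon (log axis), ranked by the mean over all libraries, with the mean of the 2 RNAi libraries (circles) and of the 2 wild-type libraries (squares); open symbols at the bottom stand for no count in that genotype. A few genes stand above a long tail, 9 genes have no count in RNAi libraries and 23 have none in wild-type libraries. Library totals differ. A count was found for 61 and 31 members in RNAi 1 and 2, and 43 and 30 in wild type 1 and 2.

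The members at measurable level were mostly those with no other Cpr gene nearby in the genome. Many Cpr genes lie in tandem clusters: 49 of the 70 had another member within 20 kb, and 21 had none. Of the 8 tested members, 6 belonged to those 21, namely Cpr67B, Cpr51A, Cpr78E, Cpr73D, Cpr66D and Cpr11B. The exceptions were Cpr49Ae, of a cluster of 8 members whose median was 11 counts over the 4 libraries, and Cpr62Bb, of a cluster of 3. The 7 members of the Cpr47E cluster had 59 counts together and the 7 of the Cpr65A cluster 48. Chromosome arm 3L held 35 members and 5 of the tested ones, and arm 2R 21 and 2. Exon length of the tested members had a median of 1001 bases, against 862.5 bases over all 70.

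Cpr67B, the most abundant member, was lower in both RNAi libraries than in either wild-type library. It had 19.2 and 22.1 CPM in RNAi 1 and 2, against 65.8 and 37.4 CPM in wild type 1 and 2, with means of 20.6 ± 2.02 CPM in RNAi and 51.6 ± 20.1 CPM in wild type (SD, n = 2 each). The RNAi libraries lay close together and the groups did not overlap, while the wild-type libraries differed from each other by more than the RNAi libraries did. The log2 fold change was -1.33 (SE 0.44), which did not pass in edgeR's quasi-likelihood test over all genes (adjusted p = 0.843). Its counts were 599 and 541 in RNAi 1 and 2, and 1903 and 417 in wild type 1 and 2. The gene (FBgn0035985) lies on the plus strand of arm 3L at 9404797 to 9406174 of the BDGP6 assembly and overlaps no other annotated gene.

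Within the library sets Cpr67B was lower as well. RNAi 1 stood at 0.292 times wild type 1 (exact 95% interval 0.266 to 0.320) and RNAi 2 at 0.589 times wild type 2 (0.518 to 0.671), with intervals for counting error alone. When the model carried a term for the set, the log2 fold change was -1.29 (SE 0.22), and Cpr67B fell with an edgeR adjusted p of 0.00180. This was the 1 of 8 tested members called in that fit, in which 7.1% of all 9637 genes tested were called and 3.65% were called lower. Against that background 1 call among 8 is not a result about the family. DESeq2 with the set term gave an adjusted p of 2.43e-04 and limma-voom 2.81e-06. These p-values can be too small, because the counts themselves defined the sets and the model kept a single residual degree of freedom. In bulk RNA, fewer cells that express a gene and less of its RNA per cell cannot be told apart.

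Cpr51A, which ranked next, did not follow Cpr67B. It had 19.3 and 14.4 CPM in RNAi 1 and 2, against 19.1 and 8.26 CPM in wild type 1 and 2. The groups overlapped, with wild type 2 the lowest of the 4 libraries. The log2 fold change was 0.29 (SE 0.49), and -0.17 without wild type 2, so its sign rested on that library. RNAi 1 was at 1.01 times wild type 1 (0.900 to 1.14) and RNAi 2 at 1.74 times wild type 2 (1.38 to 2.21). Cpr51A (FBgn0033942, arm 2R, minus strand, 14512559 to 14515211) encloses CG30197 on the other strand without shared exon bases. CG30197 had 80.6 and 37.0 CPM in RNAi 1 and 2, and 86.6 and 42.3 CPM in wild type 1 and 2. As the strand setting of the counting was not given, whether reads of CG30197 entered the Cpr51A counts was not tested.

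Cpr78E had nearly the same level in every library. It had 3.30 and 3.67 CPM in RNAi 1 and 2, against 3.77 and 3.86 CPM in wild type 1 and 2. Both RNAi values lay below both wild-type values, but by little: the log2 fold change was -0.13 (SE 0.38). The ratio was 0.875 (0.662 to 1.16) in set 1 and 0.951 (0.654 to 1.40) in set 2, and both intervals hold 1. Cpr78E (FBgn0037114) lies on the minus strand of arm 3L at 21666452 to 21666980.

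Cpr73D had 4.94 and 2.20 CPM in RNAi 1 and 2, against 2.49 and 1.44 CPM in wild type 1 and 2. Across sets the groups overlapped, while within each set the RNAi library was the higher, at 1.98 times wild type 1 (1.49 to 2.66) and 1.53 times wild type 2 (0.864 to 2.87). The log2 fold change was 0.83 (SE 0.54), and 0.84 (SE 0.35) with the set as a term, where the edgeR adjusted p was 0.174. Exons of Cpr73D (FBgn0036680, arm 3L, minus strand, 16939100 to 16957689) share bases with those of Ogdh on the other strand, a gene of the citric acid cycle. Ogdh had 148 and 329 CPM in RNAi 1 and 2, and 169 and 260 CPM in wild type 1 and 2. Within set 1 Ogdh was lower in RNAi and Cpr73D higher, and within set 2 both were higher in RNAi. The part of Ogdh reads in the Cpr73D counts was not tested.

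Cpr49Ae was highest in wild type 1. It had 1.44 and 2.04 CPM in RNAi 1 and 2, against 5.09 and 2.06 CPM in wild type 1 and 2. RNAi 2 and wild type 2 were almost equal, at a ratio of 0.988 (0.592 to 1.70), whereas RNAi 1 was at 0.284 times wild type 1 (0.198 to 0.398). The log2 fold change was -1.07 (SE 0.54), and -0.26 without wild type 1, so the lower mean in RNAi rested on that library. With the set term the edgeR adjusted p was 0.161 and that of limma-voom 0.0289. The gene (FBgn0033728) lies on the plus strand of arm 2R at 12402216 to 12405108, 824 bases from its nearest neighbour in the cluster, Cpr49Af.

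**Figure D2:**
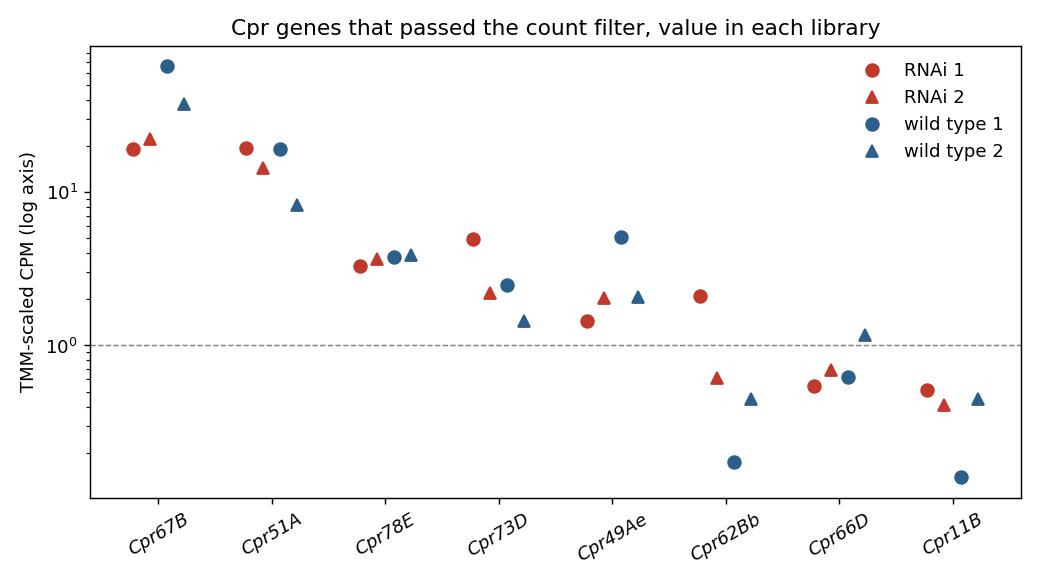
TMM-scaled CPM (log axis) of the 8 Cpr genes that passed the count filter, 1 point per library, with RNAi in red and wild type in blue, circles for libraries 1 and triangles for libraries 2; the dashed line marks 1 CPM. Cpr67B was at 19.2 and 22.1 CPM in RNAi, below 65.8 and 37.4 CPM in wild type, while Cpr78E lay between 3.30 and 3.86 CPM in all 4.

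The other 3 tested members averaged under 1 CPM, and their values are given here after they were seen. Cpr62Bb had 66 and 15 counts in RNAi 1 and 2, against 5 and 5 counts in wild type 1 and 2, which came to 2.12 and 0.612 CPM against 0.173 and 0.449 CPM. Its log2 fold change was 2.28 (SE 0.90), the largest of the 8 tested, and 1.15 without RNAi 1, so its size rested on RNAi 1. It did not pass in edgeR (adjusted p = 1.0), nor with the set term (adjusted p = 0.110), but was called without RNAi 2 (adjusted p = 0.0265), in a fit that called 1.12% of 10673 genes. Cpr66D, known as a component of the corneal lens, had 17 and 17 counts in RNAi 1 and 2, and 18 and 13 counts in wild type 1 and 2. Cpr11B had 16 and 10 counts in RNAi 1 and 2, and 4 and 5 counts in wild type 1 and 2. It lies within the span of hwt on the other strand, without shared exon bases. The gene hwt had 184 and 174 counts in RNAi 1 and 2, and 204 and 83 counts in wild type 1 and 2. Its part in the Cpr11B counts was not tested. RNAi over wild type came to 0.875 (0.424 to 1.80) in set 1 and 0.594 (0.272 to 1.33) in set 2 for Cpr66D, and 3.71 (1.20 to 15.2) and 0.909 (0.283 to 3.39) for Cpr11B. These wide intervals leave the size of any difference undetermined at this depth.

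None of the 8 tested members was called without the set term, where edgeR called 0.125% of the 9637 genes tested, DESeq2 called 0.955% and limma-voom 0.125%, and neither of the other tools called a member. At an unadjusted p under 0.05 there were 2, Cpr67B and Cpr62Bb, against 3.83% of all genes tested. The log2 fold changes were negative for 4 members and positive for 4, with a median of 0.081, beside a median of 0.0065 over all genes tested. In 4 of the 8 the genotypes did not overlap, Cpr67B, Cpr78E and Cpr49Ae being lower and Cpr62Bb higher in RNAi, where 24.2% of all tested genes did not overlap. With the set term limma-voom called 2 members, Cpr67B and Cpr49Ae, beside 8.29% of all genes tested, and DESeq2 called Cpr67B, beside 4.24%. A member that passed the filter through 1 genotype alone could more readily differ, so these counts describe the 8 and are no support for a change of the family. The direction was the same in both sets for 7 of the 8, beside 61.4% of all genes tested. Some of these directions rest on ratios close to 1, such as 1.01 for Cpr51A in set 1 and 0.988 for Cpr49Ae in set 2. Only for Cpr67B did the counting-error interval exclude a ratio of 1 in both sets.

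**Figure D3:**
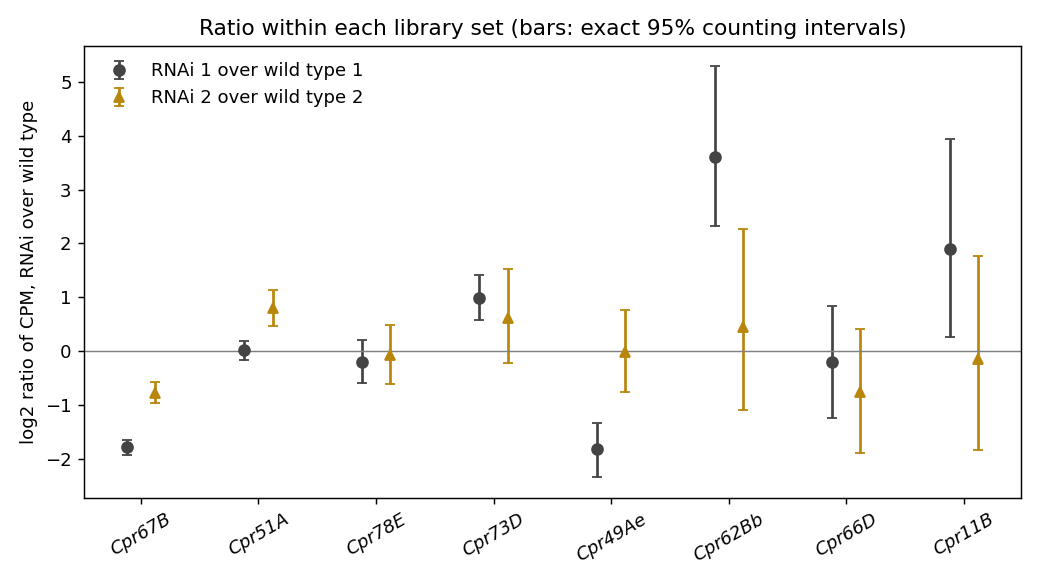
Log2 ratio of CPM, RNAi over wild type, for the 8 tested Cpr genes within set 1 (circles) and set 2 (triangles), with exact 95% intervals that cover counting error only. Cpr67B is below 0 in both sets, Cpr78E is close to 0 in both, and the intervals of Cpr73D, Cpr49Ae, Cpr62Bb and Cpr11B exclude 0 in set 1 but not in set 2.

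Summed over all 70 members, the family's mean level was lower in RNAi, but RNAi 1 lay above wild type 2, so the genotypes overlapped. The sum was 62.0 and 48.4 CPM in RNAi 1 and 2, against 101 and 57.8 CPM in wild type 1 and 2, a log2 ratio of group means of -0.53. Cpr67B alone supplied 30.96% and 45.6% of the members' counts in RNAi 1 and 2, and 64.9% and 64.8% in wild type 1 and 2. Without Cpr67B the sum was 42.8 and 26.3 CPM in RNAi 1 and 2, against 35.5 and 20.4 CPM in wild type 1 and 2, and the log2 ratio was 0.31, so the direction of the sum turned with that one gene. Without wild type 1 the log2 ratio of the full sum was -0.067. No test was made on these sums.

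Among the 62 members that were not tested, counts were concentrated in RNAi 1. They added up to 333 and 57 counts in RNAi 1 and 2, against 121 and 30 counts in wild type 1 and 2, or 10.7 and 2.32 CPM against 4.19 and 2.69 CPM. RNAi 1 was thus the highest of the 4, while RNAi 2 was the lowest, and the genotypes overlapped. In set 1 RNAi stood at 2.55 times wild type (exact 95% interval 2.06 to 3.17) and in set 2 at 0.863 times (0.545 to 1.39). Of the 54 with any count, 36 were highest in RNAi 1, or 66.7%. Counts in RNAi 1 alone were found for 10, or 18.5%, near the 17.3% of all untested genes with a count. No untested member reached 1 CPM in any library.

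The same held for lowly expressed genes at large. Over all 7873 genes that were not tested, the summed level was 1106 and 349.6 CPM in RNAi 1 and 2, against 488 and 449 CPM in wild type 1 and 2, and the ratio was 2.26 in set 1 and 0.779 in set 2. RNAi 1 was the highest library for 58.6% of the untested genes with a count. Genes of the ovary and testis list, of which 22 of 24 had a count, 0 passed the filter and Mst84Da and Mst84Db were at 0, added up to 4.78 and 0.775 CPM in RNAi 1 and 2, against 1.11 and 0.898 CPM in wild type 1 and 2. In it the oocyte gene osk had 1.06 and 0.326 CPM in RNAi 1 and 2, against 0.173 and 0.359 CPM in wild type 1 and 2, and the chorion gene Cp7Fb 0.737 and 0.041 CPM against 0 and 0 CPM. The part of RNA from other tissues in the low Cpr counts was not tested.

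The number of members detected was also highest in RNAi 1. At least 1 count was found for 61 and 31 of the 70 members in RNAi 1 and 2, and for 43 and 30 in wild type 1 and 2. At the smallest library total the same counts would give 50.4 and 22.9 in RNAi 1 and 2, and 32.6 and 30 in wild type 1 and 2, with RNAi 1 still the highest. Over all 17510 genes the numbers with a count were 14963 and 12535 in RNAi 1 and 2, and 13520 and 12303 in wild type 1 and 2. At the smallest total these would be 13747 and 11643 in RNAi 1 and 2, and 12216 and 12303 in wild type 1 and 2. RNAi 1 stayed the highest and RNAi 2 was then the lowest, for members and for all genes, while the wild-type libraries came close to each other.

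**Figure D4:**
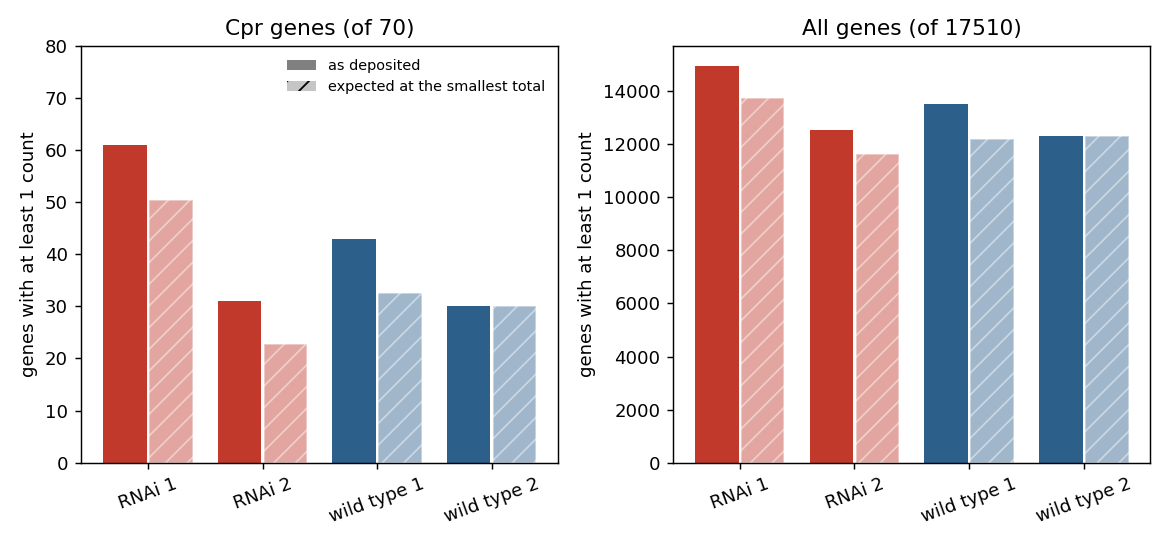
Number of genes with at least 1 count in each library, for the 70 Cpr genes (left) and all 17510 genes (right), in the deposited counts (solid) and, computed from them, at the smallest library total of 11294882 counts (hatched), with RNAi in red and wild type in blue. RNAi 1 has the most detected genes in both panels, 61 Cpr genes and 14963 genes in all.

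Examples from the tandem clusters show how thin these counts are. The 7 genes Cpr47Ea to Cpr47Eg had 49 and 0 counts in RNAi 1 and 2, against 8 and 2 counts in wild type 1 and 2. The 3 genes Cpr72Ea, Cpr72Eb and Cpr72Ec had 19 counts in RNAi 1 and none in the other libraries. Of these, Cpr72Ec, a corneal lens component like Cpr66D, had 12. The Cpr78C cluster of 3 went the other way, with 9 and 1 counts in RNAi 1 and 2, against 16 and 4 counts in wild type 1 and 2. Of the 54 untested members with a count, both RNAi libraries exceeded both wild-type libraries in 11 and lay below both in 4. Of the 5966 untested genes with a count, 13.8% were higher in that way and 6.49% lower. Among the 11, Cpr49Ac had 9 and 9 counts in RNAi 1 and 2, against 2 and 0 counts in wild type 1 and 2. Cpr64Ac had 4 and 6 counts in RNAi 1 and 2, against 0 and 0 counts in wild type 1 and 2. The 4 Cpr64A genes lie within the span of CG43367 on arm 3L, which had 27.6 and 38.8 CPM in RNAi 1 and 2, and 21.7 and 34.9 CPM in wild type 1 and 2, and whose part in their counts was not tested. Cpr76Bd, the most abundant untested member with 38 counts in all, and Cpr11B, the least abundant tested one with 35, mark the edge of the filter.

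Cuticle genes outside the family were set beside it. Of 60 other cuticle proteins (the Lcp, Ccp, Tweedle and related families), 51 had a count, 6 were tested and 1 was called, Crys. It encodes drosocrystallin, known from the corneal lens and also grouped with genes of the peritrophic matrix. Crys had 82.6 and 76.4 CPM in RNAi 1 and 2, against 4.88 and 2.51 CPM in wild type 1 and 2 (log2 fold change 4.40, SE 0.51, edgeR adjusted p = 0.0401). With upper-quartile factors that call was lost (adjusted p = 0.0684). With the set term Vajk3 was called too (adjusted p = 0.00633), on 28 and 15 counts in RNAi 1 and 2 against 0 and 0 counts in wild type. The median log2 fold change of the tested members was 0.017. Like the Cpr genes, most of this list was under the filter. Cpr66D and Crys, both tested, had log2 fold changes of -0.48 and 4.40.

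Genes that make or modify chitin, or build and tan the cuticle, were measured far more fully. Not all of them need act on cuticle, since the peritrophic matrix also holds chitin. Of 35 genes of chitin synthesis and cuticle assembly all had a count and 29 were tested, of which edgeR called none without the set term and 3 when it was included, 2 of them higher and 1 lower in RNAi (median log2 fold change -0.059). The tracheal tube gene exp had 8.20 and 7.18 CPM in RNAi 1 and 2, against 0.519 and 1.26 CPM in wild type 1 and 2, and the chitinase Cht5 had 7.08 and 10.4 CPM against 3.04 and 3.77 CPM. Cda9, a chitin deacetylase, had 32.8 and 26.4 CPM in RNAi 1 and 2, against 77.0 and 47.3 CPM in wild type 1 and 2, with a set-term log2 fold change of -1.04 and an edgeR adjusted p of 3.08e-05. Of 18 tanning and pigment genes 12 were tested, none was called without the set term and with it Ddc, which makes dopamine for cuticle hardening, was lower (log2 fold change -0.62, adjusted p = 0.0381; list median -0.034). Of 20 transcription factors linked to moulting or cuticle 19 were tested, none was called without the set term and with it bowl was lower (log2 fold change -0.81, adjusted p = 0.00161; list median 0.15).

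Markers of the cuticle-lined tissues were present in all libraries. The 19 foregut and hindgut markers added up to 475 and 871 CPM in RNAi 1 and 2, and to 513 and 751 CPM in wild type 1 and 2, with none at 0. With the set term hh was higher (log2 fold change 1.06) and bowl and cad were lower (-0.81 and -0.58) among the 16 tested. The median of the 16 without that term was -0.036. The gene bowl was also in the transcription factor list and cad in the adult gut list, so each was counted under both. In the sums above, cad had 45.2 and 84.0 CPM in RNAi 1 and 2, and 78.9 and 107 CPM in wild type 1 and 2. The 15 tracheal markers, none at 0, added up to 62.6 and 64.9 CPM in RNAi 1 and 2, and to 82.8 and 63.6 CPM in wild type 1 and 2, with no gene called among 14 tested and a median log2 fold change of 0.028. Gasp is a chitin-binding protein of the tracheal lining. It had 11.7 and 15.98 CPM in RNAi 1 and 2, against 26.0 and 16.9 CPM in wild type 1 and 2. The list also held bnl, an FGF ligand that acts on tracheal cells and whose level need not follow tracheal tissue. For bnl the values were 15.4 and 12.0 CPM in RNAi 1 and 2, against 14.4 and 10.8 CPM in wild type 1 and 2. Cpr67B and the sums of the tracheal, adult gut and Malpighian tubule lists were all highest in wild type 1. Whether the share of hindgut, foregut or tracheal tissue had a part in the Cpr67B level was not tested.

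Other lists described the rest of the tissue. Of the 20 adult gut genes, all tested, none was called in edgeR unless the set was a term, when 3 were higher and 2 were lower in RNAi (median log2 fold change -0.12), among them Npc1b (1.73) and Amy-d (1.13) higher and NPF (-0.94) lower with that term. The 15 fat body and haemocyte genes, with He at 0, added up to 199 and 401 CPM in RNAi 1 and 2, and to 216 and 224 CPM in wild type 1 and 2. Of the 10 tested, NimC1 (log2 fold change 2.97) and Yp1 (0.67) were higher with the set term (median without it 0.40). The 12 Malpighian tubule genes, of which 9 averaged at least 1 CPM, added up to 982 and 894 CPM in RNAi 1 and 2, and to 1790 and 1127 CPM in wild type 1 and 2, with none at 0. Most of this sum came from Alp5 in every library. Alp5 had 769 and 711 CPM in RNAi 1 and 2, against 1526 and 951 CPM in wild type 1 and 2. Of the 11 tested, Alp5 was lower with the set term (log2 fold change -0.70, list median without it -0.15). The 19 muscle genes, none at 0, added up to 1561 and 2505 CPM in RNAi 1 and 2, and to 2127 and 3595 CPM in wild type 1 and 2. Of the 17 tested, 5 were lower with the set term, including TpnC47D (log2 fold change -0.99), up (-0.73) and Act87E (-0.74), and the median without it was -0.49. Over the 10 lists other than the cuticle proteins, edgeR without the set term called 0 of the 136 different genes tested, with 6 at an unadjusted p under 0.05, while DESeq2 called 3 and limma-voom 0.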

How the data were processed

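The deposited values were raw read counts per gene, whole numbers without normalization, 1 column per library. Per the submitters' processing notes, FastQC, STAR and the BDGP6 assembly were used. The sources used here do not give versions, the counter, strandedness or the gene models. Of 17510 identifiers 17405 were matched to a symbol. Positions, exon lengths (union of exons) and overlaps came from an Ensembl annotation of BDGP6.

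In R 4.3.3 with edgeR 4.0.16, filterByExpr kept 9637 genes, TMM factors scaled the libraries, and the quasi-likelihood test with robust estimation compared the genotypes. A gene was called at a p under 0.05 after Benjamini-Hochberg adjustment across every tested gene. CPM were scaled by TMM. Exact 95% intervals of count ratios are binomial and cover counting error only. The fits were tested on simulated data with a spread near that of the set-term fit (14.8% coefficient of variation); behaviour at the larger spread without that term (36.1%) was not tested. Alternatives were other scaling (RLE, upper-quartile, none), no filter, leaving out each library, thinning, DESeq2 1.42.0, limma-voom (limma 3.58.1) and the library set as a term. A fit that kept every member with at least 10 counts and a sum without the 3 most abundant members were added after seeing the data. Libraries are numbered in order of deposit. The members, the library-set term and the 11 gene lists (275 names, of which 13 were not matched) were chosen with earlier results of these data known. Members are named if tested; values in every library are given for those with a mean of at least 1 CPM or called in either edgeR fit. Of each list up to 3 genes called in either edgeR fit are named, those with the smallest p, or the 2 most abundant where none was called.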

Additional observations from a re-analysis of the deposited data

How the results depend on the processing

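The number of Cpr genes averaging at least 1 CPM was 5 to 6 when each library was left out, 7 at a minimum of 0.5 CPM and 2 at a minimum of 5 CPM. The number past the count filter was 8 to 18 with a library left out, since the filter then asks less of the smaller genotype. Members with at least 10 counts numbered 11 after thinning to the smallest total, and 12 to 32 with a library left out, the lowest without RNAi 1. Called members, 0 without the set term, were 1 with that term in edgeR, 1 in DESeq2, 2 in limma-voom, 1 in edgeR with all members of at least 10 counts kept, and 0 to 1 with a library left out. The log2 ratio of the summed members was 0.31 without Cpr67B, 0.44 without the 3 most abundant members, and -0.88 to -0.067 with a library left out. With a library left out, the log2 fold change of Cpr51A was -0.17 to 1.0 and that of Cpr66D -0.93 to 0.0045, against 0.29 and -0.48 with all libraries, and both turned sign without wild type 2. That of Cpr67B was -1.66 to -0.88 with a library left out, and the adjusted p was 0.613 to 1.0.

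Genes called over the whole table numbered 12, against 1 with upper-quartile factors, 120 without a filter, 92 with DESeq2, 58 to 120 with a library left out, 684, 409 and 799 with the set term in edgeR, DESeq2 and limma-voom, and 696 in edgeR with that term and all members of at least 10 counts kept. Called genes of the related lists numbered 1 (Crys), against 0, 4 and 4 with upper-quartile factors, no filter and DESeq2, 1 to 7 with a library left out, and 21, 14, 26 and 21 in those 4 fits with the set term. The cause of these moves was not tested. A lone library of a genotype was assumed to vary like the other genotype. The labels give no replicate numbers, so no pairing of libraries could be taken from them. The set term blocks RNAi 1 with wild type 1 and RNAi 2 with wild type 2, but by a split read from the counts. Fits with the set term leave no residual degree of freedom without a library. Counts under about 10 per library limit what the untested members can show.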
